A study of Mus musculus with 6 samples.

Results

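Chemokines and their receptors were examined in cells of the mouse oviduct that lacked or retained Pbrm1, which encodes a subunit of the PBAF form of the SWI/SNF chromatin remodeling complex. The genes were chosen by symbol alone: protein-coding genes named Ccl, Ccr, Cxcl, Cxcr or Ackr with a number, together with Cx3cl1, Cx3cr1, Xcl1, Xcr1 and Ccrl2. The table of 54232 genes held 59 such rows with 57 distinct symbols, 36 of ligands and 23 of receptors. A gene was treated as measured when it had at least 10 counts in at least 3 of the 6 libraries, which 33 of the 59 did, against 15434 of all genes. RNA-seq had been performed on primary smooth muscle cells isolated from oviducts on day 2 of pregnancy, from females 8 to 12 weeks old. Oviducts were digested with enzymes, filtered and plated, without any sort; the medium was changed after 4 h and the cells were taken 2 h later. The groups were WT and Pbrm1 cKO, with 3 libraries each. Per the study's description of the mice, Pbrm1 cKO animals carry floxed Pbrm1 alleles and the PR-IRES-cre allele, so recombination takes place in cells that express or have expressed the progesterone receptor, and cells that never expressed it would keep the gene. The labels call the controls WT, while a legend in the supplement of the study names Pbrm1 fl/fl mice for these cells, and it is not stated whether animals were pooled for a library.

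Chemokines are small secreted proteins that guide the movement of cells, mainly of leukocytes, through receptors coupled to inhibitory G proteins. They are named for the spacing of their first cysteines (CC, CXC, CX3C and XC). CXC ligands with a glutamate-leucine-arginine (ELR) motif act on neutrophils through Cxcr2, most inflammatory CC ligands act on monocytes and macrophages through receptors such as Ccr1 and Ccr2, and Cxcl12 acts through Cxcr4. Atypical receptors bind chemokines without G protein signaling and remove or store them. Resident macrophages, fibroblasts and smooth muscle cells can all release chemokines, and the promoters of many inflammatory members are bound by NF-kB.

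Promoters are shown first, since many members lie side by side on a chromosome and moved together. A window of 300 bases (250 before the gene start and 50 from it on) was found in RefSeq (build GRCm38.p6) for 24 of the 33 measured members, and each is printed 5′ to 3′ on the strand of its gene, with matches to the NF-kB motif on either strand in capitals. The windows of Cxcl1, Cxcl2 and Cxcl3 stand for 3 ELR ligands that rose in cKO, those of Ccl9 and Ccl6 for adjoining CC ligands that rose, and that of Cxcr4 for the receptor that fell. They span chr5:90890995-90891294 for Cxcl1 (plus strand), chr5:90903649-90903948 for Cxcl2 (plus), chr5:90785851-90786150 for Cxcl3 (plus), chr11:83578587-83578886 for Ccl9 (minus), chr11:83593038-83593337 for Ccl6 (minus) and chr1:128592250-128592549 for Cxcr4 (minus).
Cxcl1: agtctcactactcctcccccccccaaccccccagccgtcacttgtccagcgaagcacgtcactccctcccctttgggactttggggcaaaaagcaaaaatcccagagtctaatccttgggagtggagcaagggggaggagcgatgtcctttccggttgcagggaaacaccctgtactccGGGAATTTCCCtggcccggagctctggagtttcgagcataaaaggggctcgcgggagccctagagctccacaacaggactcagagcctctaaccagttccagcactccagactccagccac
Cxcl2: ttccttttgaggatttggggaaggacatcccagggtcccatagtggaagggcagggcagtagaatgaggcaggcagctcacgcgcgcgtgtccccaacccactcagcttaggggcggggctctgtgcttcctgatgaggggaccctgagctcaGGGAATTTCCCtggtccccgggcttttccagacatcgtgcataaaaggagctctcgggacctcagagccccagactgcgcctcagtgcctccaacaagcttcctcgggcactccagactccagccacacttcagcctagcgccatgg
Cxcl3: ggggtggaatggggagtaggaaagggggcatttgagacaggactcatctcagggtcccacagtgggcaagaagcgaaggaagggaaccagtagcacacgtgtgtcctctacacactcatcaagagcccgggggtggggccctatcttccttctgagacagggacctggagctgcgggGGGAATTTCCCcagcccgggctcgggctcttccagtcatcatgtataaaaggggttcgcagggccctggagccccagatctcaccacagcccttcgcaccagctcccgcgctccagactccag
Ccl9: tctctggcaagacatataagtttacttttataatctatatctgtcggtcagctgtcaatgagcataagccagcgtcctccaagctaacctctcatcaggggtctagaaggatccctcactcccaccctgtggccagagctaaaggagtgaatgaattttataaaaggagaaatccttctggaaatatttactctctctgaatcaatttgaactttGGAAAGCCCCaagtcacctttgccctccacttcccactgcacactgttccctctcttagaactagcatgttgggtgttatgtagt
Ccl6: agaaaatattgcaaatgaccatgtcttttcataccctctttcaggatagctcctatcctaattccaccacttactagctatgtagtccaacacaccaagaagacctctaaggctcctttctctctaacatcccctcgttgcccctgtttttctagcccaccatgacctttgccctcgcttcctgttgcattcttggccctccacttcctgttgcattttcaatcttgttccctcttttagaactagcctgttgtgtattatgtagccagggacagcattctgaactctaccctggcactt
Cxcr4: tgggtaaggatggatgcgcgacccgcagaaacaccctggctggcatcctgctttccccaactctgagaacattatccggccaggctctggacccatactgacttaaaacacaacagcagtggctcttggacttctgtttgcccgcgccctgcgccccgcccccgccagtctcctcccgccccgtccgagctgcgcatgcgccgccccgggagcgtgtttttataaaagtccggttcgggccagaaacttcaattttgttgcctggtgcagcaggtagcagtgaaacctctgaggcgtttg

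In the windows of Cxcl1, Cxcl2 and Cxcl3 the capitals are 1 run of 11 bases, GGGAATTTCCC, in which the motif fits on both strands with an overlap. Counted from the gene start, the run began at position -71 in Cxcl1, -97 in Cxcl2 and -73 in Cxcl3. The match in Ccl9 began at -35, and the windows of Ccl6 and Cxcr4 held none. In all, 7 of the 24 windows held the motif: 6 of 14 of the genes that rose (Cxcl1, Cxcl2, Cxcl3, Ccl9, Cxcl10 and Ccrl2), 0 of 3 of those that fell, and 1 of 7 of those that did not pass the test (Ccr3). The same motif was present in 4.51% of 32851 RefSeq windows of this length. Cxcl1, Cxcl2 and Cxcl3 carry the same run and lie together on chromosome 5, so their matches are not independent. Ccl2, Ccl4, Ccl7, Cxcl5 and Cxcl16, which rose, were among the 9 measured members without a window. Other motifs searched on both strands were the AP-1 site TGANTCA (3 of 24 members, 7.81% of all windows), the TATA box TATAAA (8 of 24, 13.6%), the C/EBP site TTNNGCAA (2 of 24, 10.8%) and the interferon response element (2 of 24, 3.44%). Such matches describe letters in these windows and show no binding.

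Libraries held between 15390818 and 18947947 counts. Levels of a gene are given as CPM, counts per 1000000 of a library size normalized by the trimmed mean of M values, on which scale 3 counts are 0.159 to 0.193 CPM. The targeted gene had 170, 183 and 172 CPM in WT, and 43.5, 50.7 and 42.7 CPM in cKO replicates 1, 2 and 3, or 26.0% of WT (log2 fold change -1.94, edgeR adjusted p = 9.13e-11). Across all 15376 genes tested with edgeR's quasi-likelihood test, 43.7% passed an adjusted p-value of 0.05, 21.9% being raised and 21.8% lowered in cKO. Smooth muscle markers were abundant in every library, with 8 markers summing to between 3470 and 3542 CPM in WT and between 4246 and 4737 CPM in cKO. Most of that sum came from Tagln and Acta2 (means of 1598 and 1287 CPM in WT). Des (239 CPM), Smtn (136), Myh11 (88.2), Actg2 (62.5), Cnn1 (62.1) and Lmod1 (40.7) were much lower in WT. Fibroblast markers (2628 to 2651 CPM in WT, 4274 to 5018 in cKO) and macrophage markers (724 to 777 CPM in WT, 1172 to 1235 in cKO) were present as well, so the libraries held RNA of several cell types. In such bulk samples, more cells of a type and more RNA per cell cannot be told apart.

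Most chemokine and receptor genes that could be measured differed between the genotypes, and nearly all of these were higher in cKO. Of the 33 members tested, 23 (69.7%) passed the test, against 43.7% of all genes. Higher in cKO were 20 (60.6%, against 21.9% of all genes) and lower were 3 (9.09%, against 21.8%). The median log2 fold change was 0.684 over the members and 0.00156 over all tested genes, and 12 members rose by more than 1 on the log2 scale. Ligands made up 15 of the genes that rose and 2 of those that fell (Cx3cl1 and Ccl17), from 22 tested, and receptors made up 5 and 1 (Cxcr4), from 11 tested. WT and cKO libraries were fully separated in CPM for 23 members (69.7%), against 53.5% of all tested genes. Ccl12 reached the limit for a measured gene through its cKO libraries alone, so these counts describe the members that could be measured and not the whole family. Summed over all ligand rows, expression was 746 ± 9.89 CPM in WT and 1189 ± 105 CPM in cKO, and over all receptor rows 55.4 ± 3.13 and 83.2 ± 2.23 CPM (SD, n = 3; sums not tested).

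**Figure D1:**
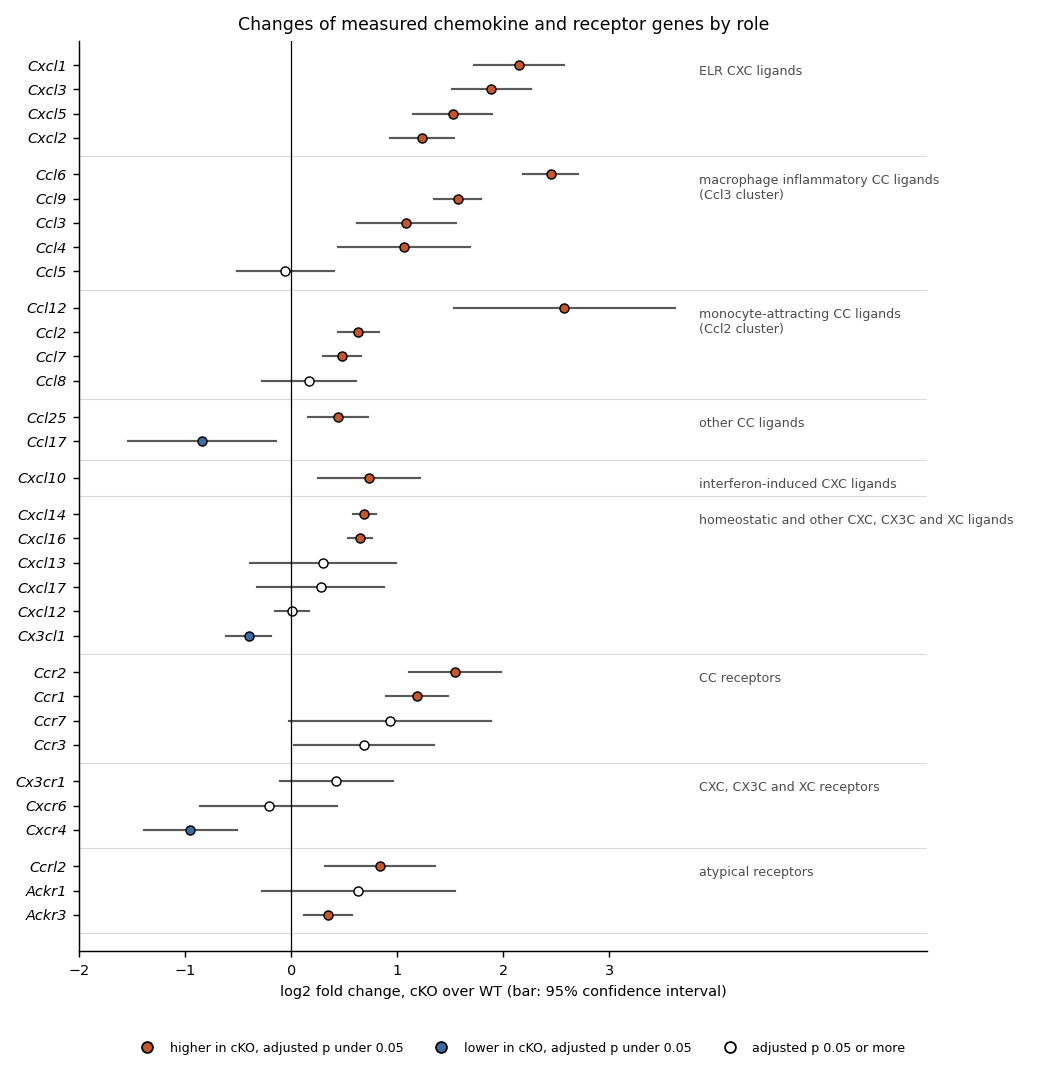
Log2 fold change of cKO over WT for measured chemokine and receptor genes, grouped by role, with bars for the 95% confidence interval of the edgeR fit. Filled points passed an adjusted p-value of 0.05 and open points did not; 3 filled points lie on the left of 0 and the others on the right.

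Levels between genes were compared per length, as CPM per kilobase of exon. Ccl2 stood highest in WT at 145 ± 9.09, followed by Ccl7 at 90.6 ± 6.92, Cxcl14 at 68.3 ± 3.53, Cxcl16 at 26.8 ± 0.700 and Cxcl12 at 23.5 ± 0.719 (SD, n = 3). The WT ranges of these 5 genes did not overlap with each other. Ccl9 followed at 12.3 ± 0.384, Cxcr4 at 7.80 ± 0.413 and Ccl6 at 7.41 ± 0.106, and the last pair overlapped. The lowest measured genes were the receptors Ccr3, Ccr2 and Ccr7, at 0.243, 0.217 and 0.203. Of the 32 neighbouring pairs in the WT order, 20 overlapped between libraries, and their order is not separated by the spread. In cKO the first 4 places were the same, Ccl6 moved from place 8 to 5 and Cxcr4 from place 7 to 16.

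**Figure D2:**
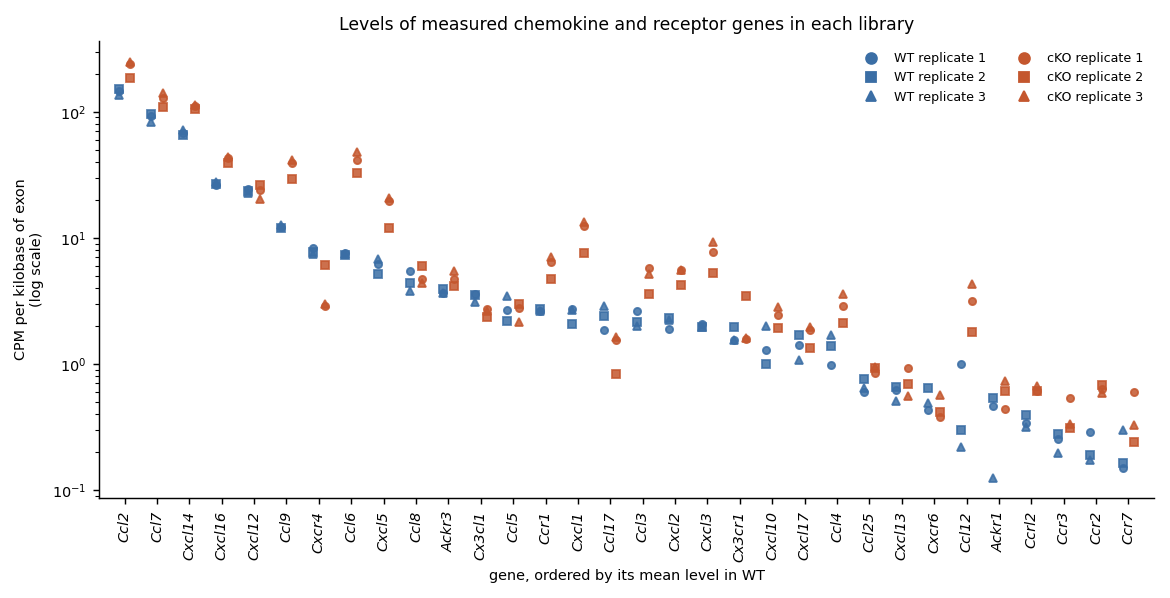
CPM per kilobase of exon (log axis) in each of the 6 libraries for measured genes, ordered by mean level in WT, with WT libraries in blue and cKO libraries in orange. Ccl2, Ccl7, Cxcl14 and Cxcl16 are the highest in both groups, and Ccl6 lies near 7.41 in WT and near 40.5 in cKO.

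The ELR ligands rose together. These genes, Cxcl1, Cxcl2, Cxcl3 and Cxcl5, encode ligands of Cxcr2 that draw neutrophils. All 4 passed the test, and they are the measured genes of the class under the choice by symbol. Cxcl1 had 5.08, 3.90 and 4.98 CPM in WT, and 23.1, 14.1 and 24.9 CPM in cKO replicates 1, 2 and 3. Its mean of 20.7 ± 5.77 CPM in cKO was 4.45-fold that in WT (4.65 ± 0.652 CPM; log2 fold change 2.15, 95% interval 1.72 to 2.57, edgeR adjusted p = 1.54e-06). Every cKO library was far above every WT library, with replicate 2 the lowest of the cKO libraries. Cxcl3 was at 7.21, 6.90 and 6.85 CPM in WT and at 27.2, 18.4 and 32.4 CPM in cKO (log2 fold change 1.89, 95% interval 1.51 to 2.26, edgeR adjusted p = 1.54e-06). Cxcl5 was at 11.5, 9.57 and 12.6 CPM in WT and at 36.6, 22.2 and 38.3 CPM in cKO (log2 fold change 1.52, 95% interval 1.15 to 1.90, edgeR adjusted p = 1.18e-05). Cxcl2 was at 3.90, 4.81 and 4.63 CPM in WT and at 11.4, 8.70 and 11.5 CPM in cKO (log2 fold change 1.23, 95% interval 0.93 to 1.54, edgeR adjusted p = 1.20e-05). None of these ranges overlapped between the groups, and in each gene cKO replicate 2 was lowest among the cKO libraries. The longest transcripts of Cxcl2 and Cxcl3 matched at 91.6% over 320 bases, so reads within that stretch could have been lost or assigned to the wrong copy, and their values are uncertain to that extent.

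Receptors of the ELR ligands were at or near 0, and neutrophil markers were low. Cxcr2 had between 0 and 5 counts per library and Cxcr1 had 0 in every library, which allows up to 0.193 CPM in the shallowest library at a count of 3. The neutrophil markers Ly6g and Retnlg were at 0 in all 6 libraries, and the sum of 6 neutrophil markers lay between 2.69 and 3.74 CPM in WT and between 2.08 and 2.55 CPM in cKO. The largest part of that sum was Csf3r, the receptor of granulocyte colony-stimulating factor, with 25 to 35 counts per library in WT and 19 to 27 in cKO (1.46 to 1.87 and 1.22 to 1.46 CPM), and S100a8 had 4 to 24 counts. Of the 3 neutrophil markers tested with edgeR, 0 passed (S100a8, lower in cKO, was the 1 with an unadjusted p under 0.05, and DESeq2 called 0).

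The CC ligands that lie around Ccl3 on chromosome 11 rose with the exception of Ccl5. These ligands act on monocytes and macrophages, and Ccl6 and Ccl9 are ligands of Ccr1 found in rodents. Ccl6 was at 13.5, 13.1 and 13.4 CPM in WT and at 74.7, 58.3 and 85.3 CPM in cKO, a 5.47-fold rise of its mean (log2 fold change 2.45, 95% interval 2.19 to 2.70, edgeR adjusted p = 4.59e-09). Among members with more than 10 counts in each library it had the largest rise. Ccl9 was at 37.2, 36.2 and 38.5 CPM in WT and at 118, 88.4 and 126 CPM in cKO (log2 fold change 1.57, 95% interval 1.35 to 1.79, edgeR adjusted p = 9.12e-08). Ccl3 was at 2.01, 1.66 and 1.52 CPM in WT and at 4.39, 2.76 and 3.93 CPM in cKO (log2 fold change 1.08, edgeR adjusted p = 0.00116). Ccl4, a close relative of Ccl3, was at 0.650, 0.909 and 1.11 CPM in WT and at 1.91, 1.38 and 2.38 CPM in cKO (log2 fold change 1.06, edgeR adjusted p = 0.00898). In all of these the cKO libraries lay above the WT libraries, although Ccl4 rested on 11 to 37 counts per library. Ccl5, a chemoattractant of T cells and monocytes, was at 2.54, 2.09 and 3.34 CPM in WT and at 2.64, 2.87 and 2.06 CPM in cKO, and the groups overlapped (log2 fold change -0.06, 95% interval -0.51 to 0.40).

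In the Ccl2 group, Ccl2 and Ccl7 rose from a high level by smaller steps, and Ccl12 rose from a low one. Ccl2 was at 167, 174 and 153 CPM in WT and at 272, 210 and 285 CPM in cKO (log2 fold change 0.63, 95% interval 0.44 to 0.83, edgeR adjusted p = 7.40e-05). Ccl7 was at 74.1, 77.2 and 66.4 CPM in WT and at 103, 87.5 and 113 CPM in cKO (log2 fold change 0.48, 95% interval 0.30 to 0.65, edgeR adjusted p = 0.00038). The groups did not overlap in either gene, and the highest WT library and cKO replicate 2 were nearest to each other. Ccl12 was at 0.532, 0.1604 and 0.117 CPM in WT and at 1.69, 0.955 and 2.32 CPM in cKO (log2 fold change 2.58, 95% interval 1.53 to 3.62, edgeR adjusted p = 0.000751). That estimate rests on 9, 3 and 2 counts in WT and on 30, 18 and 36 in cKO, and its interval is the widest among the members. Ccl8, a further ligand that lies in this group, was at 2.78, 2.25 and 1.93 CPM in WT and at 2.42, 3.08 and 2.25 CPM in cKO, and did not pass the test (log2 fold change 0.17, 95% interval -0.27 to 0.61).

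Receptors of these CC ligands rose as well. Ccr2, the receptor of Ccl2, Ccl7 and Ccl12 on monocytes, was at 1.95, 1.28 and 1.17 CPM in WT and at 4.27, 4.56 and 3.99 CPM in cKO (log2 fold change 1.55, 95% interval 1.11 to 1.98, edgeR adjusted p = 3.73e-05). Ccr1, the receptor of Ccl3, Ccl6 and Ccl9, was at 7.39, 7.70 and 7.44 CPM in WT and at 18.3, 13.4 and 19.8 CPM in cKO (log2 fold change 1.18, 95% interval 0.89 to 1.47, edgeR adjusted p = 1.18e-05). Each of Ccr2 and Ccr1 was higher in 3 of 3 cKO libraries than in any WT library. Ccr3, known from eosinophils, was at 0.827, 0.909 and 0.644 CPM in WT and at 1.74, 1.01 and 1.09 CPM in cKO; its groups did not overlap, but it did not pass the test (log2 fold change 0.68, 95% interval 0.02 to 1.35, edgeR adjusted p = 0.0884). Ccr7, which guides dendritic cells and T cells, had 5 to 21 counts per library and overlapping groups (log2 fold change 0.93, 95% interval -0.02 to 1.88, edgeR adjusted p = 0.106). Without cKO replicate 2, both passed the test (edgeR adjusted p = 0.0479 for Ccr3 and 0.0378 for Ccr7).

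Macrophage and pan-leukocyte markers moved in the same direction as these ligands and receptors, as did marker sums of other cell types. Fibroblast sums were 2628 to 2651 CPM in WT and 4274 to 5018 CPM in cKO. Smooth muscle, epithelial and mesothelial sums were also higher in every cKO library than in any WT library, and endothelial sums were lower. All 10 macrophage markers rose, with a median log2 fold change of 1.30; they summed to 724 to 777 CPM in WT and 1172 to 1235 CPM in cKO. All 5 pan-leukocyte markers rose too, with sums of 69.0 to 73.4 and 121 to 134 CPM. The rises ranged from 0.46 for Lyz2 to 1.86 for C1qb on the log2 scale. Of the dendritic cell markers, Itgax rose by 0.98 and Zbtb46 by 0.26 on the log2 scale, and Cd209a was at 0 in every library. The call of Zbtb46 (edgeR adjusted p = 0.0280) was lost in 5 of 12 alternatives, with DESeq2 (adjusted p = 0.109) and without WT replicate 2, WT replicate 3, cKO replicate 1 or cKO replicate 3 (edgeR adjusted p up to 0.113). Of the T and NK cell markers, 7 genes in all, Cd8a and Gzma were at 0 in every library. The sum of the 7 was lower in cKO (0.703 to 1.07 CPM in WT and 0.318 to 0.619 CPM in cKO), at few counts and not tested. The neutrophil sum was lower in cKO as well (2.69 to 3.74 CPM in WT and 2.08 to 2.55 CPM in cKO). The B cell markers summed to at most 0.562 CPM with Ms4a1 at 0, and the mast cell markers to at most 0.267 CPM. The part of leukocytes in the rise of the chemokine genes was not tested. Lyz2 made up more of the macrophage sum than the 9 other markers together in every library. Without it, an alternative chosen after seeing the data, the sums were 284 to 296 CPM in WT, and 577, 572 and 589 CPM in cKO replicates 1, 2 and 3, so that cKO was 2.00-fold WT in place of 1.62-fold. The ligand sum was 1235, 1069 and 1263 CPM in the same cKO libraries, lowest in replicate 2. With Lyz2 kept, the macrophage sum was 1172, 1235 and 1194 CPM in these libraries, highest in replicate 2. The pan-leukocyte sum was 121, 134 and 133 CPM, also highest there. Of the 10 macrophage markers, 5 were lowest and 3 highest in replicate 2 among the cKO libraries.

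**Figure D3:**
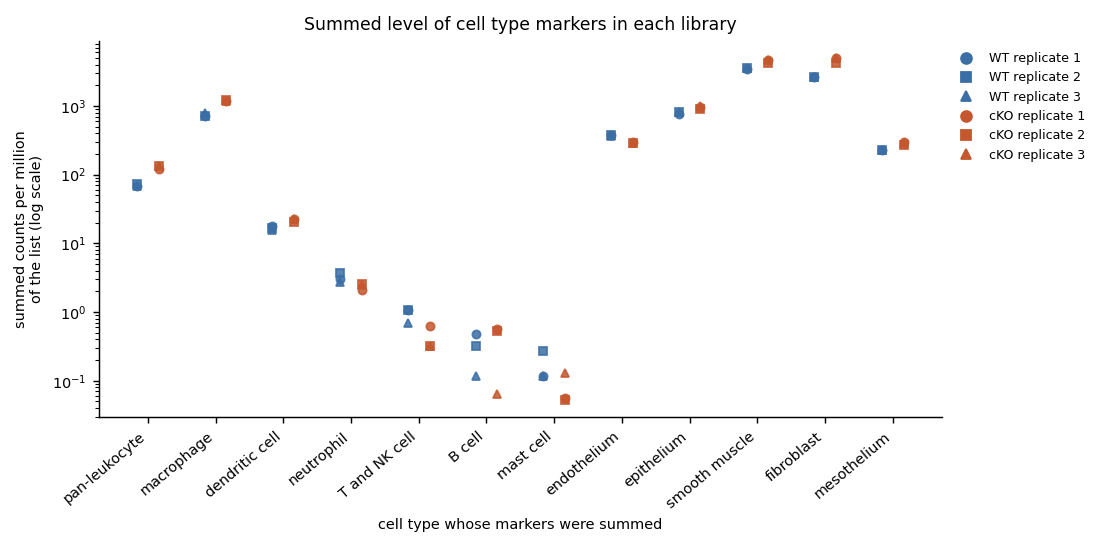
Summed CPM (log axis) of the marker genes of 12 cell types in each library, with WT in blue and cKO in orange. The macrophage sum is 724 to 777 CPM in WT and 1172 to 1235 CPM in cKO, while the neutrophil sum stays at or below 3.74 CPM and those of T and NK, B and mast cells at or below 1.07 CPM.

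Both measured receptors of Cxcl12 changed, in opposite directions, while the ligand did not pass the test. Cxcl12 holds CXCR4-bearing progenitors and leukocytes in tissues. It was at 198, 191 and 186 CPM in WT and at 197, 215 and 165 CPM in cKO, so the cKO libraries spanned the whole WT range (log2 fold change 0.00, 95% interval -0.16 to 0.16, edgeR adjusted p = 0.973). Cxcr4, its signaling receptor, was at 14.9, 14.01 and 13.4 CPM in WT and at 5.17, 10.98 and 5.40 CPM in cKO, or 51.0% of the WT mean (log2 fold change -0.95, 95% interval -1.39 to -0.51, edgeR adjusted p = 0.00201). All cKO libraries were lower than all WT libraries, but replicate 2 lay between the WT libraries and the other cKO libraries. Ackr3, the atypical receptor that scavenges Cxcl12, was at 12.2, 13.1 and 12.1 CPM in WT and at 15.7, 13.7 and 18.3 CPM in cKO (log2 fold change 0.35, 95% interval 0.12 to 0.58, edgeR adjusted p = 0.0171). In 3 of 6 fits that left out 1 library Ackr3 no longer passed, with an adjusted p-value of 0.0845 without cKO replicate 3.

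Cx3cl1 fell, while its receptor did not pass the test. Cx3cl1, a membrane-bound chemokine (fractalkine), was at 13.95, 13.8 and 12.1 CPM in WT and at 10.7, 9.28 and 10.2 CPM in cKO (log2 fold change -0.40, 95% interval -0.62 to -0.19, edgeR adjusted p = 0.00495). Every cKO library lay below every WT library. Cx3cr1, its receptor on monocytes and macrophages, was at 6.91, 8.77 and 6.91 CPM in WT and at 7.14, 15.7 and 7.27 CPM in cKO. The cKO mean was set by replicate 2, with 295 counts against 127 and 113 in replicates 1 and 3, and the test was not passed (log2 fold change 0.43, 95% interval -0.11 to 0.96, edgeR adjusted p = 0.187). Without that library the estimate turned to -0.06 (edgeR adjusted p = 0.736), while without the filter on low counts Cx3cr1 passed (log2 fold change 0.42, edgeR adjusted p = 0.00355).

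**Figure D4:**
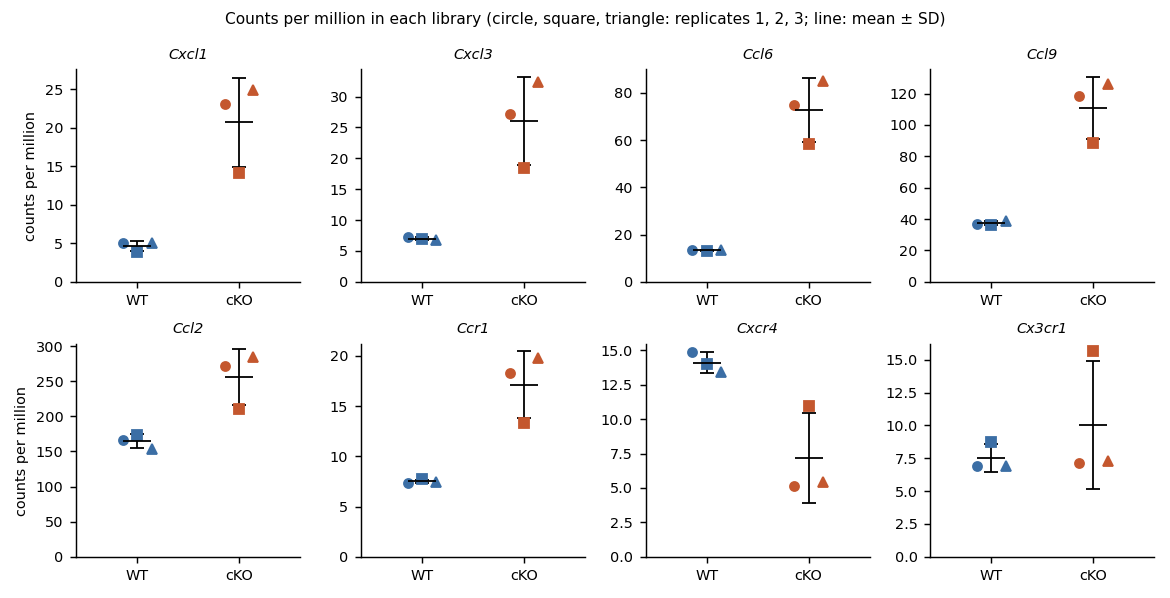
CPM of 8 chemokine and receptor genes in each library (circle, square and triangle for replicates 1, 2 and 3; horizontal lines for the mean and bars for ± SD, n = 3; every axis starts at 0). Cxcl1, Cxcl3, Ccl6, Ccl9, Ccl2 and Ccr1 are higher in every cKO library, Cxcr4 is lower, and cKO replicate 2 stands apart from the other cKO libraries in Cxcr4 (10.98 CPM) and Cx3cr1 (15.7 CPM).

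Cxcl14 and Cxcl16 were high in both groups and rose by nearly the same amount. Cxcl14, a chemokine of epithelium and stroma, was at 124, 119 and 132 CPM in WT and at 203, 193 and 208 CPM in cKO (log2 fold change 0.69, 95% interval 0.58 to 0.80, edgeR adjusted p = 2.28e-07). Cxcl16, which is made as a transmembrane protein and binds Cxcr6, was at 78.9, 80.5 and 83.1 CPM in WT and at 129, 118 and 133 CPM in cKO (log2 fold change 0.65, 95% interval 0.53 to 0.76, edgeR adjusted p = 6.39e-07). These were the members with the narrowest intervals among those that rose, and their groups were far apart. Cxcr6, with 13 to 23 counts per library, did not pass the test (log2 fold change -0.21, 95% interval -0.86 to 0.43).

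Smaller or less firm changes were found in 4 further members. Cxcl10, an interferon-induced ligand of Cxcr3, was at 2.90, 2.25 and 4.51 CPM in WT and at 5.46, 4.30 and 6.31 CPM in cKO (log2 fold change 0.73, 95% interval 0.25 to 1.21, edgeR adjusted p = 0.0166). It was the single member that passed although its groups overlapped, and the call was lost in 4 of 6 fits that left out 1 library, with adjusted p-values up to 0.0825 without WT replicate 2. Ccrl2, an atypical receptor that presents chemerin, was at 0.886, 1.02 and 0.820 CPM in WT and at 1.58, 1.59 and 1.74 CPM in cKO (log2 fold change 0.84, edgeR adjusted p = 0.0129, DESeq2 adjusted p = 0.110). Ccl25, a ligand of Ccr9 known from thymus and gut, was at 4.43, 5.61 and 4.80 CPM in WT and at 6.30, 6.90 and 7.01 CPM in cKO (log2 fold change 0.44, edgeR adjusted p = 0.0148, but 0.0616 without WT replicate 1 and 0.0786 with DESeq2). The groups did not overlap in either gene. Ccl17, a ligand of Ccr4, was at 0.946, 1.23 and 1.46 CPM in WT and at 0.787, 0.424 and 0.836 CPM in cKO. It rests on 8 to 25 counts per library (log2 fold change -0.85, 95% interval -1.54 to -0.15, edgeR adjusted p = 0.0488), and the call was lost in 7 of 12 alternatives.

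The other members gave no call or could not be measured. Cxcl13 (log2 fold change 0.30, 95% interval -0.39 to 0.99), a B cell attractant, and Cxcl17 (0.28, -0.32 to 0.87), a mucosal chemokine, had 10 to 25 counts per library. Ackr1 (0.63, -0.28 to 1.54), known from venules and red cells, had 3 to 16 counts and shared 25.7% of its exon bases with Cadm3 on the same strand, so that reads there were not assigned to either gene. Not measured were 26 rows: the receptors Ccr4, Ccr6, Ccr8, Ccr9, Ccr10, Cxcr1, Cxcr2, Cxcr3, Cxcr5, Xcr1, Ackr2 and Ackr4, and the ligands Ccl1, Ccl11, Ccl19 (2 rows), Ccl20, Ccl22, Ccl24, Ccl26, Ccl27 (2 rows), Ccl28, Cxcl9, Cxcl15 and Xcl1. Their highest count in any library was 14, for Ccl22 in cKO replicate 1, and 7 of the rows had 0 counts in every library. Ccl22, with 1 to 3 counts per library in WT and 6 to 14 in cKO, passed when no filter on low counts was used (edgeR adjusted p = 0.00474). Cxcr3, the receptor of Cxcl10, had 1 to 3 counts per library, and Cxcl9, another ligand of that receptor, had 0 to 7.

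Many chemokine genes lie side by side, and their changes were set out by position. On chromosome 5, 7 genes span from Cxcl5 to Cxcl2 (90759360 to 90905938), among them Pf4 and Ppbp, which are chemokines although their symbols lie outside the choice made here. All 6 that were tested rose. Pf4 (platelet factor 4) was at 85.6, 77.4 and 80.7 CPM in WT and at 219, 184 and 237 CPM in cKO (log2 fold change 1.39, edgeR adjusted p = 1.73e-08), and Ppbp at 15.95, 17.6 and 18.9 CPM in WT and at 33.0, 25.6 and 35.1 CPM in cKO (log2 fold change 0.83, edgeR adjusted p = 3.81e-05). Of the 5 other genes tested within 300 kb, Rassf6 alone passed, and it fell (log2 fold change -0.73). On chromosome 11, 4 of 5 tested genes between Ccl5 and Ccl4 (83525778 to 83664683) rose, against 1 of 13 other tested genes within 300 kb. In the Ccl2 group on the same chromosome (82035571 to 82305690), 3 of 4 rose. Among these is Ccl12, which reached the limit for a measured gene through its cKO libraries alone. Of 2 other genes nearby 0 passed with edgeR (0 with DESeq2). On chromosome 8, Cx3cl1 and Ccl17 (group at 94745590 to 94812036) both fell. Of 15 other tested genes within 300 kb, 8 passed, 3 higher and 5 lower. Over all tested genes, 43.7% passed, 21.9% higher and 21.8% lower in cKO. These groups were set by a gap of at most 300 kb between chemokine genes, chosen after the values were seen, and genes of a group are not independent of each other.

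**Figure D5:**
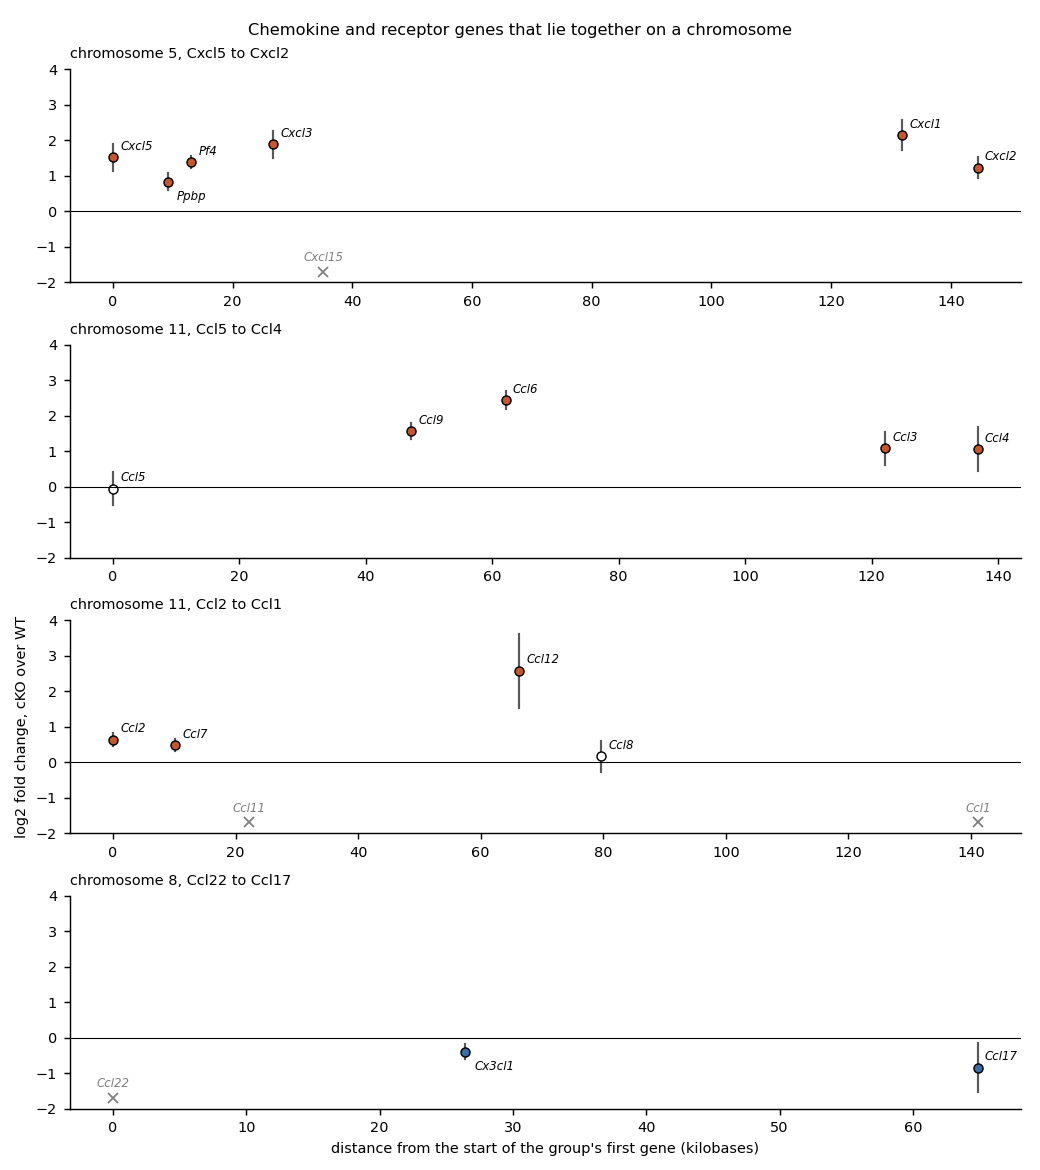
Log2 fold change of cKO over WT (points, with 95% confidence intervals) against distance in kilobases from the start of the first gene, for 4 groups of chemokine and receptor genes that lie together. Orange points rose, blue points fell, white points did not pass the test and crosses at the foot of each panel mark genes with no value. All 6 tested genes of the chromosome 5 group and 4 of 5 of the Ccl5 to Ccl4 group lie above 0 with a call.

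Genes that carry the signal of chemokine receptors were also more often higher than lower. Of 26 such genes, 17 passed the test (65.4%, against 43.7% of all genes), 15 higher and 2 lower; their median log2 fold change was 0.282. The largest rises were those of Grk3, a kinase that shuts off receptors (8.64 ± 0.952 CPM in WT and 16.5 ± 2.71 CPM in cKO; log2 fold change 0.93), Dock2, a Rac activator of leukocytes (9.15 ± 0.568 and 16.7 ± 1.08 CPM; 0.87), Arrb2, an arrestin (19.9 ± 0.101 and 33.4 ± 1.25 CPM; 0.75), and Rac2, the Rac GTPase of blood cells (3.63 ± 0.164 and 5.97 ± 0.805 CPM; 0.71). Jak2 (log2 fold change 0.58) and Vav1 (0.54) followed. Several of these, Dock2, Rac2 and Vav1 among them, are genes of leukocytes, whose markers rose as given above; their part in this count was not tested. The inhibitory G protein subunit Gnai2 rose by little (log2 fold change 0.18), while Gnai1 (-0.08) and Gnai3 (-0.01) did not pass the test.

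Among 25 genes of NF-kB and of inducers of chemokine transcription, 17 passed (68.0%, against 43.7% of all genes), 16 higher and 1 lower; their median log2 fold change was 0.331. Cebpd, a transcription factor of the acute phase response, rose from 6.21 ± 1.12 to 14.2 ± 2.64 CPM (log2 fold change 1.19). Bcl3 and Nfkbiz, nuclear cofactors of NF-kB, rose by 1.03 and 0.99 on the log2 scale. Tnf, a cytokine that induces chemokines, rose from 2.25 ± 0.560 to 4.51 ± 0.924 CPM (1.00), and Tlr4, the receptor of endotoxin, from 44.6 ± 4.33 to 79.3 ± 3.09 CPM (0.83). Of the genes of NF-kB subunits, Relb (log2 fold change 0.50), Rela (0.22) and Nfkb1 (0.17; call lost without WT replicate 3, edgeR adjusted p = 0.0558) rose, while Nfkb2 (0.02) and Rel (0.15) did not pass the test. Nfkbia, the inhibitor that NF-kB induces, did not pass the test (log2 fold change 0.01), and the kinase gene Chuk fell (-0.17).

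A list of genes that bind or trim chemokines, together with related ligands and receptors, went both ways. Of 16 tested, 10 passed (62.5%, against 43.7% of all genes), 4 higher and 6 lower. Among the higher, Cd74, Cmklr1 and Rarres2 were listed as related ligands or receptors. Of the other genes that passed, Sdc4 alone was higher. Cd74, a receptor of the cytokine Mif and the invariant chain of MHC class II, rose from 43.2 ± 1.68 to 112 ± 6.23 CPM (log2 fold change 1.38), and the chemerin receptor Cmklr1 and its ligand Rarres2 rose by 0.52 and 0.32 on the log2 scale. The heparan sulfate carriers, which hold chemokines at cell surfaces, were split: Sdc4 rose from 1086 ± 24.98 to 1414 ± 185 CPM (0.38), while Gpc1 fell from 157 ± 6.97 to 112 ± 11.3 CPM (-0.49), and Sdc1 (-0.25) and Sdc3 (-0.20) fell too. Dpp4, the protease that trims and inactivates Cxcl12, fell from 6.41 ± 0.837 to 4.49 ± 0.553 CPM (-0.51), a call that was lost without WT replicate 3 (edgeR adjusted p = 0.0578).

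A library of the cKO group differed from the others in many of these genes. Among the 20 members that rose, cKO replicate 2 was the lowest cKO library in 17. The same share over all raised genes was not computed, so it is open whether this is particular to chemokine genes. Among the cKO libraries, replicate 2 also had the lowest smooth muscle and fibroblast marker sums. Its macrophage sum was the highest with Lyz2 kept (1235 CPM) but the lowest without Lyz2 (572 CPM). Its pan-leukocyte sum was the highest by little (133.8 CPM, against 133.1 CPM in replicate 3). The Pbrm1 level of replicate 2 was the highest of the 3 (50.7 CPM, against 43.5 and 42.7 CPM in replicates 1 and 3). A link between Pbrm1 level and chemokine values in this library was not tested. With that library left out, 24 of 33 members passed, 22 higher and 2 lower. Calls over all genes rose as well, from 6723 of 15376 to 7054 of 15671 (3585 higher and 3469 lower). Of the 24 members, 22 were among the 23 named above, while Ccl17 was lost and Ccr3 and Ccr7 were gained.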

How the data were processed

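RNA-seq had been performed on 3 WT and 3 Pbrm1 cKO libraries of primary oviductal smooth muscle cells. Per the file headers, the authors deposited raw read counts per gene from featureCounts 1.6.4 in reverse-stranded mode, whose defaults drop multi-mapping reads and reads shared by genes. The submitters' processing notes name cutadapt, HISAT2 and GRCm38.p5. Genes were given symbols from GENCODE M21 (54165 of 54232, 99.9%). Every pair of libraries of a group differed by more than sampling noise (chi-square per gene 1.31 to 1.60), and all 6 were used. Since separate animals are not stated in the labels, p-values measure the spread between these libraries.

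Two-sided tests of genotype used the quasi-likelihood fit of edgeR 4.0.16 (R 4.3.3), with TMM scaling and filterByExpr, over 15376 genes; p-values were adjusted by Benjamini-Hochberg and called under 0.05. The biological coefficient of variation was 5.32%. The test was checked on simulated data. CPM are given within a gene, and CPM per kilobase of the deposited exon length between genes. Limits at 3 counts cover counting error only. DESeq2 1.42.0, other scalings and filters, a replicate block and leaving out each library were alternatives. Members not passing the test are named with their intervals, those passing with every library's value, and up to 6 per pathway list by size of change. The members and lists were chosen with earlier results of these data known, and the grouping by role and position was made after values were seen. A member and a gene of a pathway list that these rules would name are counted but not reported here. Transcripts were compared with BLAST 2.17.0.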

Additional observations from a re-analysis of the deposited data

How the results depend on the processing

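Between 20 and 25 members passed under the other settings, against 23 of 33 tested (6723 of 15376 genes). With DESeq2 20 of 38 tested members passed (5307 of 17395 genes). Without a filter on low counts 25 of 52 passed (6925 of 29342 genes), a higher count but a lower share, with Ccl22 and Cx3cr1 gained. When 1 library was left out, 20 to 24 of 33 or 34 passed. At an adjusted p-value under 0.01, 18 of 33 passed (4665 of 15376 genes). Of the 23, 18 were called in all 12 alternatives; Ccl17, Ccl25, Ccrl2, Ackr3 and Cxcl10 were lost in at least 1, 12 of these 17 losses coming from fits that left out 1 library. The sign of 3 genes that had not passed turned. Cxcl12 was at -0.000927 with DESeq2, -0.00596 without a filter, -0.00379 with the replicate block, -0.0192 without WT replicate 3, -0.0122 without cKO replicate 1 and -0.0800 without cKO replicate 2 (to 0.102 without cKO replicate 3). Ccl5 was at 0.138 without WT replicate 3 and 0.0607 without cKO replicate 3 (down to -0.211 without WT replicate 2), and Cx3cr1 at -0.0649 without cKO replicate 2 (up to 0.626 without cKO replicate 1). Among marker lists, dendritic cell calls were 1 with DESeq2 and 1 to 2 with a library left out, T and NK cell calls 1 without a filter and 0 to 1, endothelium calls 2 on library size only and 1 to 2, and epithelium calls 2 to 5. The cause of these shifts was not tested. Correlations of same-numbered libraries were weak (-0.0243, 0.0353 and 0.0928), against -0.0762 to 0.0435 for libraries of different numbers. With 3 libraries per group, such values cannot settle whether the libraries were paired. With the replicate block 22 members and 6908 genes passed, and Ccl17 was lost (adjusted p = 0.0560). For all genes, leaving out 1 library gave 5532 to 7054 calls from 15626 to 15718 tested, and DESeq2 gave 5307, against 6723. Genes at 3 to 30 counts per library carry wide intervals.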

Other observations

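Ccl27a, whose symbol with a final letter lies outside the choice of members, was at 0.827, 0.749 and 0.703 CPM in WT and at 0.900, 1.06 and 0.643 CPM in cKO and did not pass the test (log2 fold change 0.21, 95% interval -0.45 to 0.87). Ccl21b, Ccl21c and Ccl27b were at 0 in every library. With all such genes counted in, 25 of 36 tested passed, 22 higher and 3 lower, against 43.7% of all tested genes.

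In the summed level of the 4 measured ELR ligands chosen by symbol, the WT libraries lay at 27.7, 25.2 and 29.0 CPM and cKO replicates 1, 2 and 3 at 98.2, 63.4 and 107 CPM. Endothelial markers summed to 364 to 380 CPM in WT and 287 to 297 CPM in cKO; Kdr alone passed the test and fell (log2 fold change -0.87), with Pecam1 at 0.13 and Cdh5 at -0.03. Of the epithelial markers 5 of 7 rose (sums of 758 to 826 CPM in WT and 895 to 998 CPM in cKO). Among these, the call of Ovgp1 was lost in 5 of 12 alternatives and those of Krt8 and Krt18 in 2 each. Of the fibroblast markers 5 of 7 rose and 1 fell, of the smooth muscle markers 5 of 8 rose and 1 fell, and of the mesothelial markers 1 of 4 rose and 2 fell. Over all tested genes, 21.9% passed as higher and 21.8% as lower.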
